A study of Homo sapiens with 6 samples.

Results

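The genes of voltage-gated and potassium ion channels were examined in definitive endoderm with the long noncoding RNA GATA6-AS1 knocked down (KD, 3 libraries) and in wild-type definitive endoderm (DE, 3 libraries). They were taken by symbol, as the KCN genes of potassium channels, the CACNA, CACNB, CACNA2D and CACNG genes of calcium channels and the SCN genes of sodium channels. This gave 134 of the 58830 rows of the expression table. All libraries were made from total RNA of HuES8, a human embryonic stem cell line. Its cells had been kept for 1 day in 100 ng/mL Activin A, the ligand that drives endoderm formation, with 2.5 µM CHIR, a GSK3 inhibitor, and then for 2 days in Activin A alone, in DMEM-F12 with 0.2% BSA. The labels name neither the means of knockdown nor any control construct in DE cells. Values are TPM (reads scaled for gene length and for the library total), so levels of different genes are compared per length.

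Potassium channels set the resting membrane potential and end electrical signals, and voltage-gated sodium and calcium channels start them. Most are built from pore subunits together with auxiliary subunits that steer their traffic and gating. Some members of the voltage-gated potassium (Kv) family form no channel by themselves, and these silent subunits join pore subunits of the KCNB group. In early embryonic cells such channels are known for roles in cell volume, proliferation and calcium entry, and excitability itself belongs to nerve, muscle and endocrine cells.

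GATA6-AS1 stood at 180, 163 and 126 TPM in KD replicates 1 to 3, against 389, 421 and 313 TPM in DE replicates 1 to 3. Its log2 change was -1.26 (SE 0.164, limma adjusted p = 0.0128, not passing without KD replicate 2 at 0.0612 or without DE replicate 1 at 0.0717), and a 2-sided exact permutation test returned p = 0.1, which is the floor for 3 libraries a group. Reads per library, estimated from the steps between low TPM values over 37138 rows matched to GENCODE 29 by symbol, lay between 18646526 and 24515341. Transcripts of mitochondrial DNA took 28.3%, 28.8% and 36.2% of TPM in KD and 28.5%, 24.6% and 38.0% in DE, so replicate 3 stood apart in both groups. Among the 63 channel genes with enough signal for testing, replicate 3 was the lowest KD library for 37 and the lowest DE library for 54. With TPM recomputed without mitochondrial genes these counts were 28 and 37. Of 8 definitive endoderm markers, 0 rose and 5 fell in KD (summed TPM 17922 to 19674 in KD and 24729 to 28273 in DE), and of 8 stem cell markers 5 rose and 0 fell (3061 to 3434 in KD and 2184 to 2665 in DE). With the replicate number as a block, a pairing read from these libraries and not from the labels, 8 endoderm markers were lower and 6 stem cell markers higher in KD. Of all genes tested, 1.77% rose and 1.5% fell, and with the block 5.88% were higher and 6.62% lower. TDGF1 of the stem cell list went the other way without passing (log2 change -0.22, limma adjusted p = 0.376 unblocked and 0.0872 with the block). Of 2 neural crest markers tested, 1 rose, and both were higher with the block (list sum 16.5 to 23.0 TPM in KD and 7.95 to 12.6 TPM in DE). Of 3 mesoderm markers tested, 1 rose and 1 fell (list sum 125 to 131 TPM in KD and 84.6 to 105 TPM in DE). Most of that sum came from the marker that rose, so it does not show the mesoderm list rising. The 1 trophoblast and amnion marker tested fell (15.5 to 20.04 TPM in KD and 37.0 to 43.9 TPM in DE). Of 3 neuroectoderm markers tested, 0 passed with or without the block (33.8 to 35.04 TPM in KD and 27.4 to 31.2 TPM in DE). The endoderm, trophoblast and neuroectoderm sums also came mostly from 1 marker each and do not stand for their lists as a whole. The part of all these markers in the changes of channel genes was not tested. In bulk RNA, fewer cells of a type and less RNA per cell cannot be told apart. Markers of excitable tissue were low: 5 of 9 neuron markers, among them MAP2, SYP and SNAP25, and 5 of 8 muscle markers, among them TNNT2 and MYOD1, were under 1 TPM in every library. Summed neuron markers ran from 22.5 to 25.3 TPM in KD and from 13.4 to 17.7 TPM in DE. Of 4 neuron markers tested, 1 rose, the neurofilament gene NEFL (mean 14.8 TPM in KD and 8.23 TPM in DE). Most of the neuron sum came from NEFL, so it does not show the neuron list rising.

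Most channel genes were weakly expressed in both groups. Of 134 members, 1 had a mean over the 6 libraries of at least 100 TPM, 12 a mean from 10 to 100 TPM, 50 a mean from 1 to 10 TPM and 69 a mean above 0 and under 1 TPM. The remaining 2, KCNK16 and KCNA6, were listed at 0 in every library. The whole exon length of KCNA6 lies within exons of GALNT8 on the same strand in GENCODE 29, so its reads could not be assigned by position. A gene was tested if it reached 1 TPM in at least 3 libraries, which 63 members did. Of the other 71 members, 67 were under 1 TPM in every library, and CACNA1C, CACNG4, KCNJ8 and KCNB2 reached 1 TPM in fewer than 3 libraries.

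**Figure D1:**
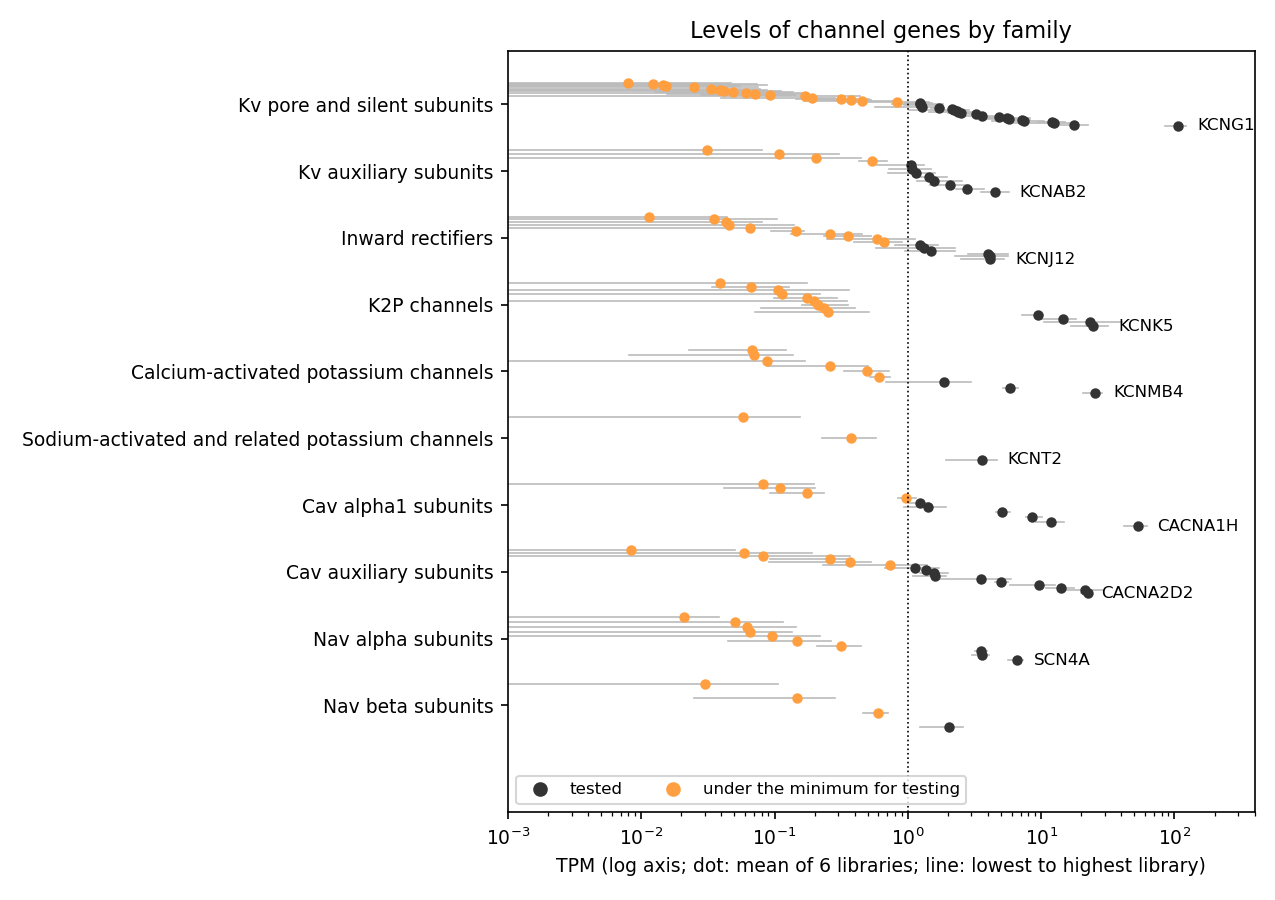
Mean TPM of each channel gene over the 6 libraries (dots, log axis) with the lowest and highest library (lines, cut at the axis edge where a library is at 0), by family. Dark genes were tested and orange genes were under the minimum for testing. The dotted line marks 1 TPM, and 2 genes listed at 0 in every library are not drawn. KCNG1 is the highest, at 84.7 TPM or more in every library.

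Silent Kv subunits were the most abundant of the Kv groups described here. KCNG1, a silent subunit, had 115, 114 and 84.7 TPM in KD and 117, 123 and 87.7 TPM in DE, the highest level of any member. Replicate 3 was the lowest in both groups, which overlapped. Its log2 change was -0.06 (95% interval -0.46 to 0.34, limma adjusted p = 0.951). The 10 silent subunits (KCNF1, KCNG1 to KCNG4, KCNS1 to KCNS3, KCNV1 and KCNV2) summed to 157, 157 and 115 TPM in KD and 166, 173 and 126 TPM in DE. Without KCNG1 they still summed to between 30.7 and 43.1 TPM in KD and between 38.8 and 49.7 TPM in DE. The 8 KCNH genes, pore subunits of the ether-a-go-go group, summed to 16.0, 14.2 and 13.9 TPM in KD and 21.0, 22.4 and 15.5 TPM in DE. The silent subunits thus lay above the KCNH genes in each library.

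In BK channels, the large-conductance channels that open with calcium and voltage, a beta subunit lay far above the pore. KCNMB4, their beta subunit of brain, had 28.8, 24.5 and 22.9 TPM in KD and 26.2, 27.9 and 20.6 TPM in DE. KCNMA1, which encodes the only BK pore, had 0.138, 0.112 and 0.0579 TPM in KD and 0.0726, 0.0324 and 0.00804 TPM in DE. These TPM values of KCNMA1 stood for an estimated 28, 26 and 17 reads in KD and 19, 7 and 2 reads in DE. Its exons span 35644 bases in GENCODE 29, over all its isoforms, which lowers its TPM for a given number of reads.

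**Figure D2:**
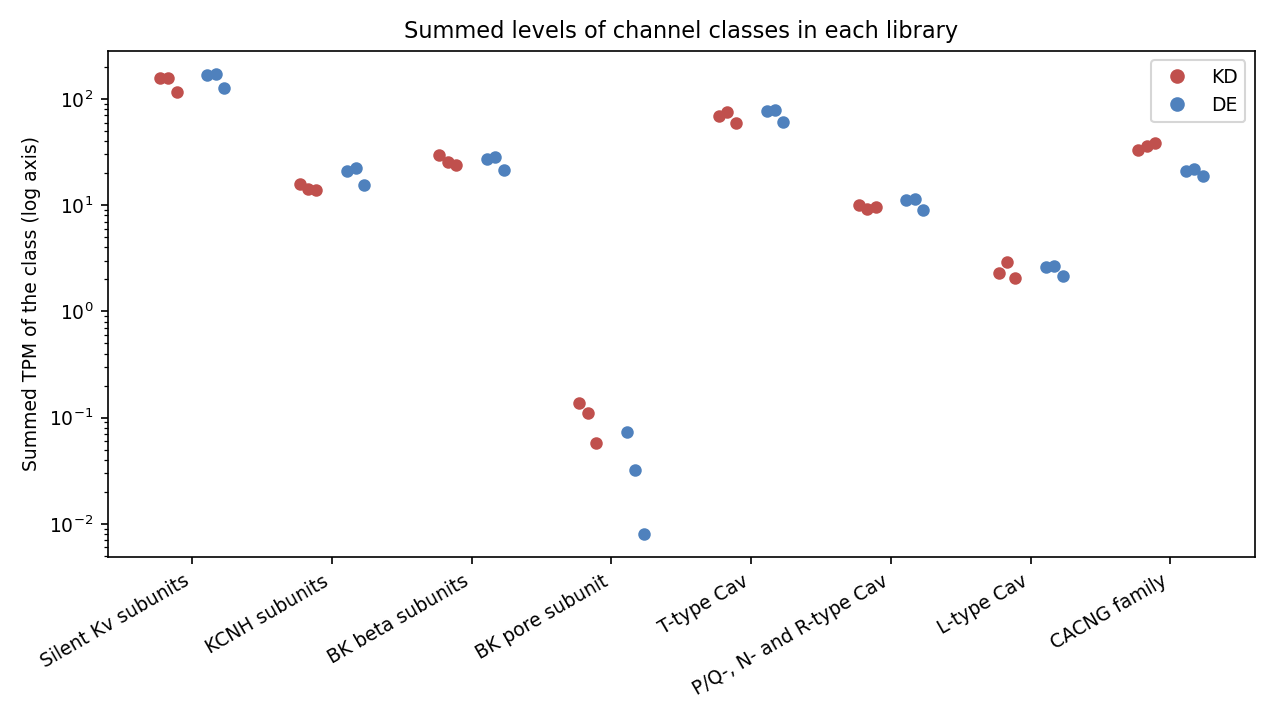
Summed TPM (log axis) of 8 classes of channel genes in each library, KD left of DE and replicates 1 to 3 from left to right. Silent Kv subunits lie between 115 and 173 TPM and the KCNH subunits between 13.9 and 22.4 TPM. The CACNG family lies between 33.1 and 38.7 TPM in KD and between 18.6 and 22.1 TPM in DE.

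The comparison of KD with DE asked which channel genes differed when the antisense RNA was lowered. KCNF1 and KCNJ5, both of potassium channels, fell, and CACNG7 and CACNG5, of the calcium channel gamma family, rose. In all, 2 of the 63 rose, 2 fell and 59 missed the threshold, which is 6.35% called against 3.27% of all 17711 genes tested. By direction, 1.77% of all genes rose and 1.5% fell. The median log2 change was -0.01 over the tested members and also -0.01 over all genes. With the replicate number as a block, 14 members passed, 6 higher and 8 lower in KD, which is 22.2% against 12.5% of all genes (5.88% higher and 6.62% lower). By voom on the estimated reads, chosen after seeing the data, 14 members passed, 7 in each direction. That is 22.2% of the 63, against 12.6% of the 14681 genes in that fit (6.44% higher and 6.14% lower). KD and DE libraries did not overlap for 17 of the 63, 9 above and 8 below, which is 27.0% against 20.8% of all genes (10.1% above and 10.7% below). An adjusted p under 0.05 over all genes tested counted as passed. Members that passed the minimum only through the group where they were higher are in these counts. Whether replicates came from separate cultures is not on the labels. The p-values therefore reflect only the spread among these libraries, which may be technical.

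**Figure D3:**
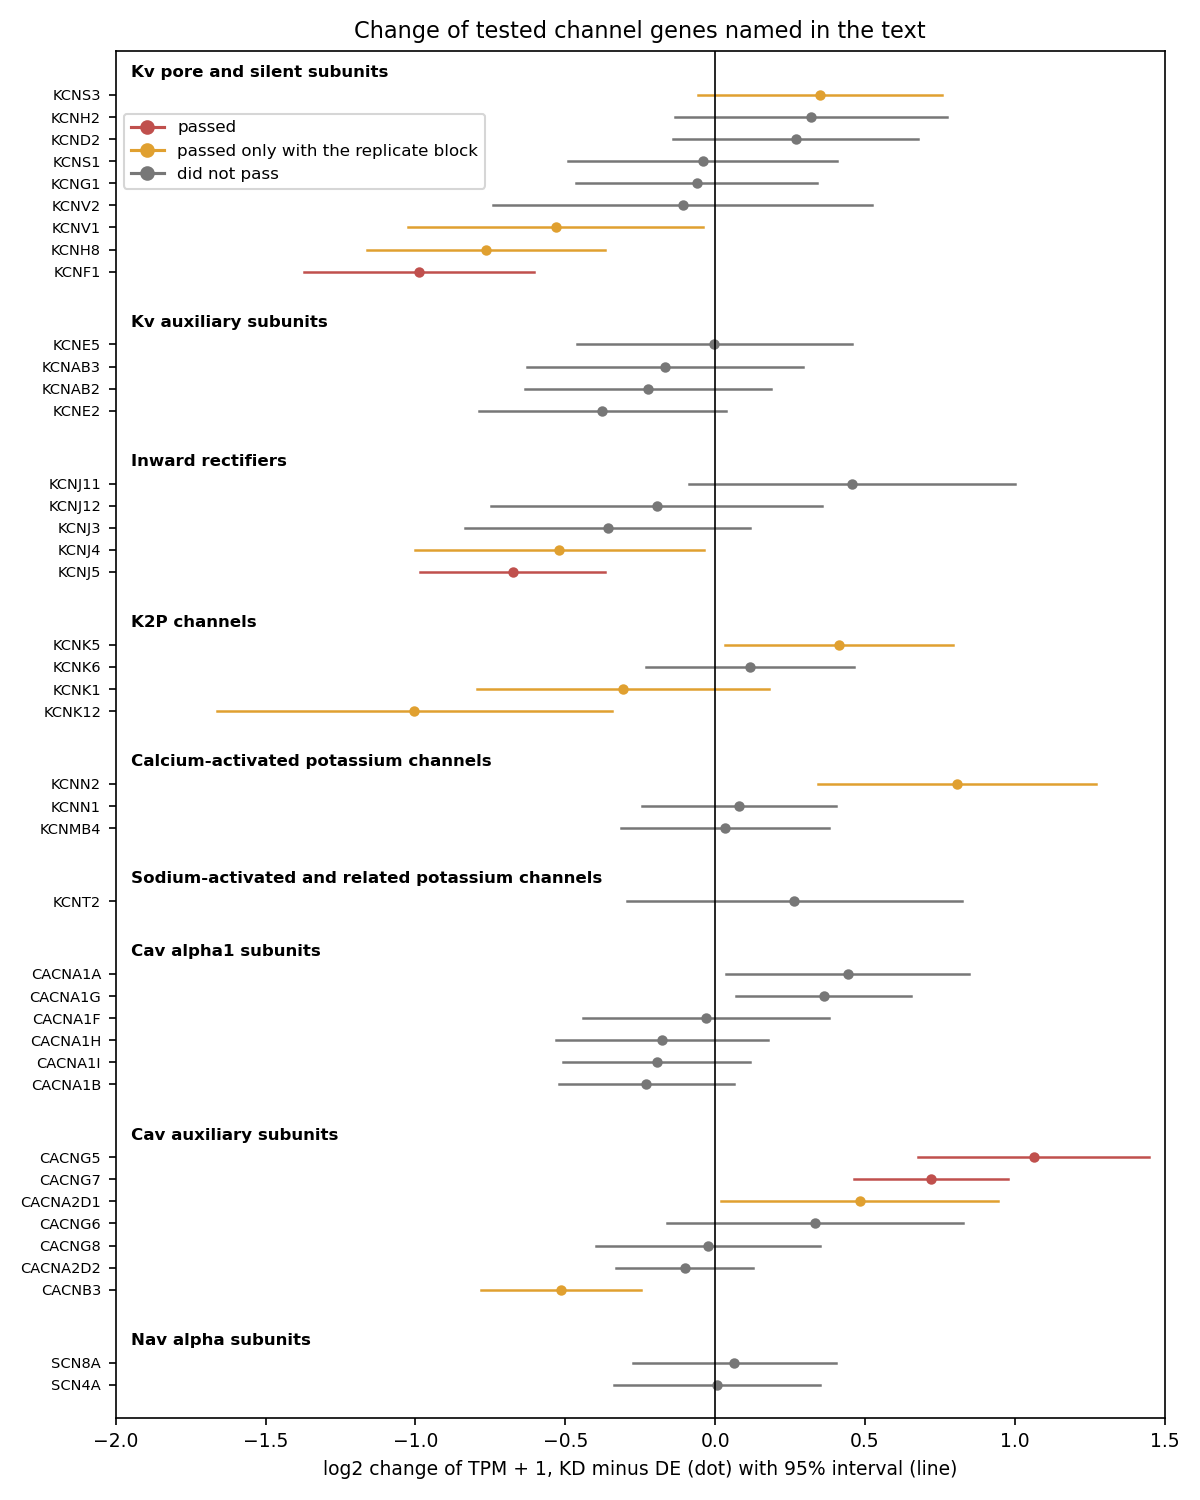
Log2 change of TPM + 1, KD minus DE, with its 95% interval (limma) for the 41 tested channel genes named in the text, by family. Red genes passed, amber genes passed only with the replicate number as a block, and grey genes did not pass. The changes run from -1.004 for KCNK12 to 1.06 for CACNG5.

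KCNF1, a silent Kv subunit encoded by 1 exon, had 9.30, 8.85 and 6.27 TPM in KD and 18.9, 15.4 and 16.6 TPM in DE. The highest KD library was below the lowest DE library. The means were 8.14 ± 1.63 TPM in KD and 16.98 ± 1.74 TPM in DE (SD, n = 3 each), and the log2 change was -0.99 on the scale of TPM + 1 (SE 0.163, 95% interval -1.37 to -0.61, limma adjusted p = 0.0245). An estimated 120, 132 and 116 reads stood behind the KD values and 309, 227 and 246 reads behind the DE values. In GENCODE 29 on GRCh38 it (ENSG00000162975.4) lies on chromosome 2 from 10911937 to 10914225 on the plus strand, and no exon of another gene overlaps its own. It did not pass without KD replicate 1 or 2 or without DE replicate 1 or 2, with fewer libraries in the fit, and its log2 change lay between -1.08 and -0.83 and its limma adjusted p between 0.0465 and 0.127 when single libraries were left out.

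KCNJ5, a G protein-gated inward rectifier that pairs with KCNJ3 in heart muscle, had 2.85, 2.81 and 2.92 TPM in KD and 5.61, 5.25 and 4.66 TPM in DE. The KD libraries lay close together and below all DE libraries. The log2 change was -0.68 (SE 0.131, limma adjusted p = 0.0426), with means of 2.86 ± 0.0522 TPM in KD and 5.17 ± 0.476 TPM in DE (SD, n = 3 each). KCNJ5 (ENSG00000120457.11) lies on chromosome 11 from 128891356 to 128921035 on the plus strand. KCNJ1, the inward rectifier of kidney, is annotated nearby from 128836315 to 128867373 on the minus strand and was under the minimum for testing, with 0.133 to 0.298 TPM in KD and 0.167 to 0.452 TPM in DE. KCNJ3 itself had 1.54, 1.06 and 0.952 TPM in KD and 1.77, 2.27 and 1.37 TPM in DE, with overlap, and missed the threshold (log2 change -0.36, limma adjusted p = 0.503). KCNJ5 passed without DE replicate 3 and did not pass without any other single library (log2 change -0.74 to -0.62, limma adjusted p 0.0434 to 0.199).

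The 250 bases upstream of both genes that fell are shown because they precede the annotated starts of the members that fell. They were read from RefSeq on GRCh38.p14, 5′ to 3′ on the plus strand, at chr2:10911684-10911933 for KCNF1 and chr11:128891106-128891355 for KCNJ5, and capitals mark a match to a motif searched.
KCNF1: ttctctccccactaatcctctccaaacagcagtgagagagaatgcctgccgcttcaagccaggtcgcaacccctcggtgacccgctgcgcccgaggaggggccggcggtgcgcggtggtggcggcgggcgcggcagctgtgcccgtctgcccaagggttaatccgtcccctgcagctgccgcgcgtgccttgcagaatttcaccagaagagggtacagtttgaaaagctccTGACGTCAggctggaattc
KCNJ5: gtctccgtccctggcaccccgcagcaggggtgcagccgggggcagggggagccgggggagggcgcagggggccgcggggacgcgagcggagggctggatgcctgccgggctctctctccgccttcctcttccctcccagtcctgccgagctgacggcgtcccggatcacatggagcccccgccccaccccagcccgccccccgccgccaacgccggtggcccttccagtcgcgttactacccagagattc
The GATA motif was searched on both strands in its forms AGATAA, then also AGATAG, as well as TGATAA, and finally TGATAG. The forkhead motif was searched likewise as TGTTTAC and in the further form TATTTAC. Neither stretch held one, which says only that these letters are not in these windows. The capitals in KCNF1 mark TGACGTCA, the palindromic cAMP response element that CREB and ATF factors are known to bind, which begins 19 bases before the RefSeq start, the base that follows the printed window. GENCODE 29 puts the start of KCNF1 a few bases further on. This motif was chosen after the sequence was seen. It was found in 1.65% of all 35116 RefSeq windows of 250 bases, the GATA motif in 22.3% and the forkhead motif in 5.27%. Of the members, 97 had a window, 149 windows in all, of which 14.8% held the GATA motif, 7.38% the forkhead motif and 0.671% the cAMP response element. The G and C content was 63.6% for KCNF1 and 75.2% for KCNJ5, with a median of 58% over all windows.

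CACNG7 encodes a transmembrane protein of the gamma family, whose members CACNG5 and CACNG7 are known to modulate AMPA-type glutamate receptors. It had 24.2, 27.6 and 28.4 TPM in KD and 15.6, 16.9 and 14.9 TPM in DE. All KD libraries were above all DE libraries. The means were 26.7 ± 2.22 TPM in KD and 15.8 ± 1.03 TPM in DE (SD, n = 3 each), and the log2 change was 0.72 (SE 0.110, limma adjusted p = 0.0196). It (ENSG00000105605.7) lies on chromosome 19 from 53909335 to 53943941, with CACNG8 from 53963040 and CACNG6 from 53992288 beyond it on the plus strand. CACNG8, a further AMPA receptor partner, had 1.34 ± 0.0368 TPM in KD and 1.38 ± 0.0964 TPM in DE (SD, n = 3 each) and missed the threshold (log2 change -0.02, 95% interval -0.40 to 0.35). CACNG6 had 1.72, 0.911 and 1.54 TPM in KD and 1.06, 0.925 and 0.668 TPM in DE, with overlap, and did not pass (limma adjusted p = 0.571).

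CACNG5 had 4.87, 4.57 and 5.95 TPM in KD and 2.13, 2.14 and 1.54 TPM in DE. The lowest KD library was thus above the highest DE library. The log2 change was 1.06 (SE 0.164, limma adjusted p = 0.0199), and an estimated 36, 39 and 63 reads in KD and 20, 18 and 13 reads in DE stood behind it. CACNG5 (ENSG00000075429.8) lies on chromosome 17 from 66835117 to 66885486 on the plus strand, with CACNG4 from 66964910 and CACNG1 from 67044590 beyond it. CACNG4, under the minimum for testing, had 0.945, 1.04 and 1.39 TPM in KD and 0.538, 0.230 and 0.275 TPM in DE, without overlap. CACNG1, the gamma subunit of the skeletal muscle calcium channel, reached at most 0.121 TPM in KD and 0.369 TPM in DE. CACNG7 and CACNG5 passed without DE replicate 3 and did not pass without any other single library, with limma adjusted p from 0.0322 to 0.123 for CACNG7 and from 0.0339 to 0.0888 for CACNG5. The 8 CACNG genes together summed to 33.1, 35.8 and 38.7 TPM in KD and 20.8, 22.1 and 18.6 TPM in DE, most of it from CACNG7.

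**Figure D4:**
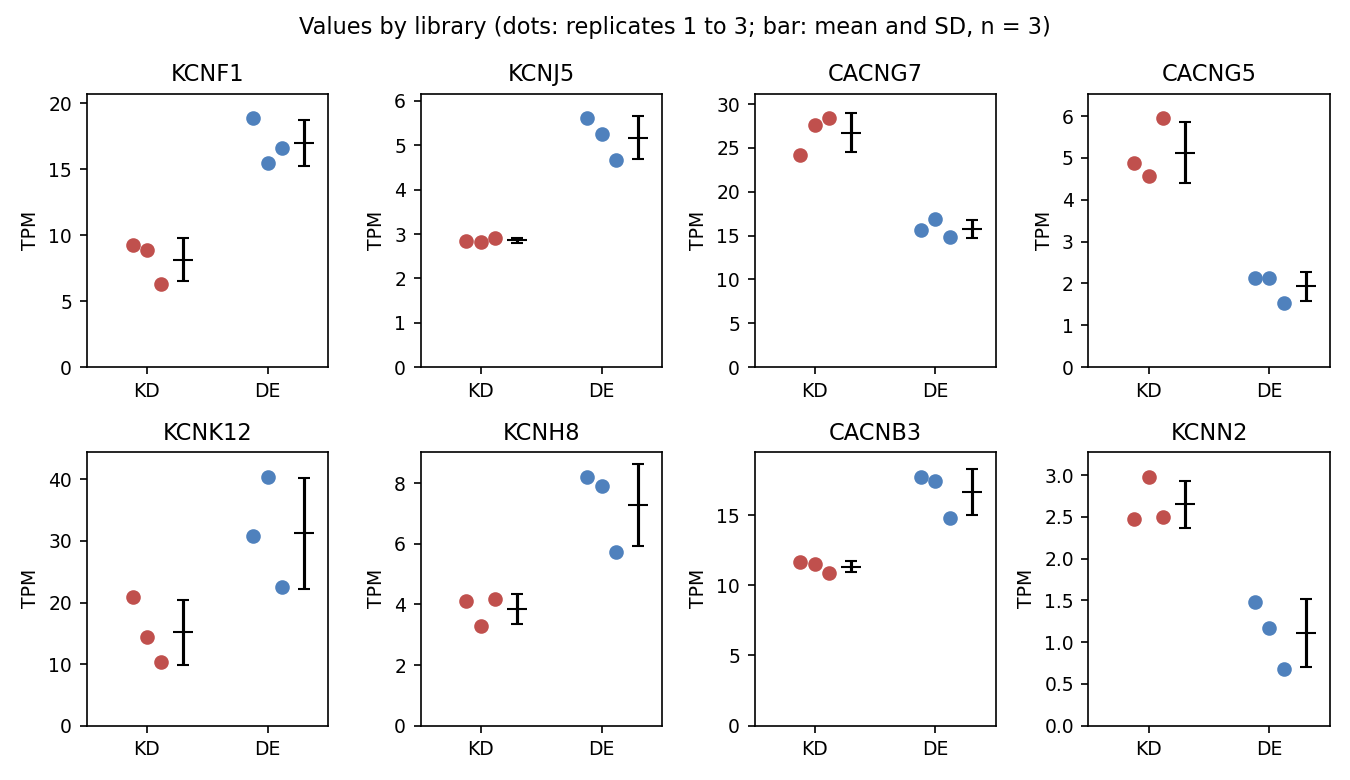
TPM of 8 channel genes in each library (dots, replicates 1 to 3 from left to right) with mean and SD (n = 3 each), KD left of DE. The top row holds the 4 genes that passed and the bottom row 4 that passed only with the replicate number as a block. KD and DE libraries do not overlap in any of these panels, as for 20.8% of all genes tested. The bottom row was picked from 10 members that passed only with the block. Of those not drawn, KCNS3, KCNV1, KCNJ4, KCNK1 and CACNA2D1 overlapped and KCNK5 did not.

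The genes described above beyond the 4 that passed, and those that follow, were partly chosen after their values were seen: KCNMA1, KCNJ1, KCNJ3, KCNJ11, KCNV1, KCNH8, KCNH2, KCND2, KCNE2, KCNK6, CACNA1A, CACNA2D1, CACNG1, CACNG4, CACNG6 and CACNG8. The other Kv genes did not pass. Of the 40 Kv pore and silent subunits, 21 were tested, 1 fell and 20 missed the threshold; the median log2 change was -0.04. KCNS3, a silent subunit, had 19.9, 22.5 and 16.8 TPM in KD and 16.7, 17.5 and 11.97 TPM in DE, with overlap (log2 change 0.35, limma adjusted p = 0.419 unblocked and 0.0363 with the block). Without DE replicate 3 its unblocked log2 change was 0.19. KCNV1, also silent, had 7.55, 6.05 and 4.29 TPM in KD and 9.05, 10.6 and 7.30 TPM in DE, with overlap (log2 change -0.53, limma adjusted p = 0.282 unblocked and 0.0431 with the block). Its unblocked log2 change was -0.35 without KD replicate 3. Under the block, KCNS3 was thus higher and KCNF1 and KCNV1 lower in KD, and of these only KCNF1 passed without it. By voom, KCNV1 passed (adjusted p = 0.0417) and KCNS3 did not (0.0925).

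KCNH8, of the ELK channels, had 4.10, 3.27 and 4.17 TPM in KD and 8.21, 7.91 and 5.72 TPM in DE. The groups did not overlap, and the gene did not pass (log2 change -0.76, SE 0.169, limma adjusted p = 0.0610 unblocked and 0.0285 with the block). It passed without the block when DE replicate 3 was left out (limma adjusted p = 0.0316). KCNH2, the hERG channel of heart repolarization, had 2.74 ± 0.506 TPM in KD and 2.004 ± 0.481 TPM in DE (SD, n = 3 each), with a log2 change of 0.32 (95% interval -0.13 to 0.77). The 8 KCNA genes of the Shaker group were all under the minimum for testing and summed to 1.11, 1.27 and 0.344 TPM in KD and 0.991, 0.870 and 0.419 TPM in DE. KCND2 of the Shal group did not pass, with a log2 change of 0.27.

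Of 12 Kv auxiliary genes, 8 were tested and none passed under limma. With the replicate block 0 passed, by voom on the estimated reads 0, and 0 had an unadjusted p under 0.05. The share of all genes under that unadjusted p was not counted, here or for the families below. KCNAB2, a cytoplasmic beta subunit, was the most abundant at 4.03 ± 0.459 TPM in KD and 4.93 ± 1.05 TPM in DE (SD, n = 3 each). KCNE5 and KCNAB3 followed, with log2 changes of -0.003 and -0.17. KCNE2, a small single-span beta subunit, had 1.01, 0.877 and 0.706 TPM in KD and 1.60, 1.33 and 1.33 TPM in DE, without overlap (log2 change -0.38, limma adjusted p = 0.379). An antisense gene covers 34.2% of its exon length, so its reads may be shared. A total of 4 tested members shared at least 10% of their exon length with another gene, and no label says whether reads were counted by strand.

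Inward rectifiers let potassium in more easily than out and hold the resting potential. Of 16 genes, 6 were tested, KCNJ5 fell and 5 missed the threshold; the median log2 change was -0.28. KCNJ4, a strong rectifier, had 4.04, 3.35 and 2.28 TPM in KD and 5.62, 5.43 and 3.97 TPM in DE, with overlap (log2 change -0.52, limma adjusted p = 0.283 unblocked and 0.0388 with the block). An antisense gene covers 12.6% of its exon length. KCNJ12 had 3.82 ± 1.15 TPM in KD and 4.47 ± 1.04 TPM in DE (SD, n = 3 each) and may share reads with its near copy KCNJ18. KCNJ11, the pore of ATP-sensitive potassium channels of beta cells, had 1.61, 2.25 and 1.24 TPM in KD and 1.35, 0.972 and 0.580 TPM in DE, with overlap (log2 change 0.46, limma adjusted p = 0.433).

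K2P channels, whose subunits each carry a pair of pore domains and pass background potassium current, split into a few well-expressed genes and many near 0. Of 14 genes, 4 were tested and the other 10 reached at most 0.515 TPM in any library. Of the 4, 0 passed under limma, 2 had an unadjusted p under 0.05, 3 passed with the replicate block and 2 by voom. Over all genes in each fit, 12.5% passed with the block and 12.6% by voom. KCNK12, a member of the halothane-inhibited group, had 20.9, 14.3 and 10.4 TPM in KD and 30.7, 40.4 and 22.5 TPM in DE. The groups did not overlap and both spread widely. Its log2 change of -1.004 (SE 0.281) did not pass (limma adjusted p = 0.122) and passed with the replicate number as a block (0.0159).

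KCNK5, an alkaline-activated K2P channel of epithelia, had 31.6, 28.4 and 24.4 TPM in KD and 24.0, 22.3 and 16.7 TPM in DE, without overlap (log2 change 0.41, limma adjusted p = 0.279 unblocked and 0.0174 with the block). Without DE replicate 3 the unblocked log2 change of KCNK5 was 0.26. KCNK1, a weakly active K2P channel, had 14.6, 14.2 and 9.76 TPM in KD and 17.9, 18.4 and 12.2 TPM in DE, with overlap (log2 change -0.31, limma adjusted p = 0.608 unblocked and 0.0435 with the block). The unblocked log2 change of KCNK1 was -0.13 without KD replicate 3 and -0.49 without DE replicate 3. In each group replicate 3 was the lowest library for KCNK12, KCNK5 and KCNK1. KCNK6 had 9.79 ± 0.441 TPM in KD and 9.03 ± 1.63 TPM in DE (SD, n = 3 each), and the log2 change was 0.12.

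Of 9 genes of calcium-activated potassium channels, 3 were tested and none passed under limma. An unadjusted p under 0.05 was found for 1, and 1 passed with the replicate block and 1 by voom. The shares over all genes were 12.5% with the block and 12.6% by voom. KCNN2, a small-conductance channel opened by calcium through calmodulin, had 2.48, 2.98 and 2.50 TPM in KD and 1.48, 1.17 and 0.681 TPM in DE. The groups did not overlap (log2 change 0.81, SE 0.198, limma adjusted p = 0.0829 unblocked and 0.0422 with the block). An estimated 91, 126 and 131 reads in KD and 69, 49 and 29 reads in DE stood behind these values. KCNN1 of the same group had 6.06 ± 0.751 TPM in KD and 5.67 ± 0.505 TPM in DE (SD, n = 3 each), and the log2 change was 0.08 (95% interval -0.25 to 0.40). KCNMB4 likewise did not pass (log2 change 0.03, 95% interval -0.31 to 0.38). KCNT2, a sodium-activated channel, had 4.10, 4.65 and 3.15 TPM in KD and 3.94, 3.75 and 1.94 TPM in DE, with overlap (log2 change 0.26, limma adjusted p = 0.744).

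Calcium channel pore subunits were mainly of the low-voltage T type. CACNA1G, CACNA1H and CACNA1I, which open near the resting potential, summed to 69.6, 75.1 and 59.7 TPM in KD and 77.3, 78.7 and 61.1 TPM in DE. The L-type genes CACNA1C, CACNA1D, CACNA1F and CACNA1S summed to 2.31, 2.93 and 2.07 TPM in KD and 2.62, 2.70 and 2.14 TPM in DE. The P/Q-, N- and R-type genes of nerve endings, CACNA1A, CACNA1B and CACNA1E, summed to 9.96, 9.28 and 9.59 TPM in KD and 11.1, 11.3 and 9.10 TPM in DE. In every library the T type was thus the highest class and the L type the lowest.

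CACNA1H was the most abundant pore subunit, with 52.2, 55.5 and 42.0 TPM in KD and 60.4, 61.9 and 47.3 TPM in DE (log2 change -0.18, 95% interval -0.53 to 0.18). CACNA1G had 12.8, 14.9 and 13.0 TPM in KD and 11.0, 10.9 and 9.07 TPM in DE, without overlap, and missed the threshold (log2 change 0.36, limma adjusted p = 0.209, by voom 0.0159). The N-type gene CACNA1B had 7.77 ± 0.183 TPM in KD and 9.31 ± 1.12 TPM in DE (SD, n = 3 each), and the log2 change was -0.23. CACNA1A had 1.78 ± 0.197 TPM in KD and 1.05 ± 0.197 TPM in DE (SD, n = 3 each), with a log2 change of 0.44 (limma adjusted p = 0.276, by voom 0.0103). Of the 6 pore genes tested 0 passed under limma, 2 had an unadjusted p under 0.05, 0 passed with the replicate block and 2 by voom. The shares over all genes were 12.5% with the block and 12.6% by voom.

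Among 16 auxiliary genes of calcium channels, 10 were tested, CACNG7 and CACNG5 rose and 8 missed the threshold; the median log2 change was 0.19. CACNB3, a cytoplasmic beta subunit that brings the pore to the membrane, had 11.6, 11.5 and 10.9 TPM in KD and 17.7, 17.4 and 14.8 TPM in DE. The groups did not overlap, and the change passed only with the block (log2 change -0.51, SE 0.114, limma adjusted p = 0.0612 unblocked and 0.0119 with the block). CACNB3 also passed unblocked when DE replicate 3 was left out (limma adjusted p = 0.0336). CACNA2D1, the extracellular subunit that gabapentin binds, had 12.1, 12.7 and 9.31 TPM in KD and 8.45, 9.56 and 5.84 TPM in DE, with overlap (log2 change 0.48, limma adjusted p = 0.301 unblocked and 0.0206 with the block). Without DE replicate 3 the unblocked log2 change of CACNA2D1 was 0.30. CACNA2D2 of the same group had 21.5 ± 1.34 TPM in KD and 23.2 ± 0.386 TPM in DE (SD, n = 3 each), and the log2 change was -0.10 (95% interval -0.33 to 0.13).

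Sodium channel genes were few and low. Of 10 alpha subunits, 3 were tested, among them SCN4A of skeletal muscle and SCN8A of neurons. SCN4A had 6.67, 7.35 and 5.79 TPM in KD and 7.36, 6.80 and 5.59 TPM in DE, with overlap (log2 change 0.01, 95% interval -0.34 to 0.35). SCN8A had 3.65 ± 0.375 TPM in KD and 3.45 ± 0.386 TPM in DE (SD, n = 3 each). The other 7 alpha subunits reached at most 0.445 TPM in any library. Of 4 beta subunits, 1 was tested. Of the 4 sodium channel genes tested 0 passed under limma, 0 had an unadjusted p under 0.05, 0 passed with the replicate block and 0 by voom.

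Other genes of ion transport were counted from a list of 61, of which 50 were tested. The list held pumps, transporters, further channels (chloride channels among them) and some regulators, and was not limited to potassium, calcium and sodium. Of these, 3 rose, 0 fell and 47 missed the threshold, where 1.77% of all genes rose and 1.5% fell. The median log2 change was 0.01. Among them, HCN2, a pacemaker channel, had 9.52, 10.4 and 9.91 TPM in KD and 4.43, 5.76 and 3.998 TPM in DE, without overlap (log2 change 0.94, limma adjusted p = 0.0199). ATP1B2, a beta subunit of the sodium pump, had 89.4 ± 5.32 TPM in KD and 59.9 ± 2.69 TPM in DE (SD, n = 3 each, log2 change 0.57, limma adjusted p = 0.0226). Under the block, 7 of the list were higher and 4 lower in KD, where 5.88% of all genes were higher and 6.62% lower.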

How the data were processed

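Gene expression was measured by RNA sequencing of total RNA in 3 KD and 3 DE libraries. The values are TPM per gene as the authors deposited them in 1 table. HISAT2 2.1.0, featureCounts, DESeq2 and build GRCh38 appear in the submitters' processing notes, without role or order. Each column was matched to its sample by the label in its name.

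The members and gene lists were chosen with earlier results of these data known. Some genes of the symbol pattern and the lists are not reported here by name. Genes at 1 TPM or more in at least 3 of 6 libraries (17711 genes) were tested on log2(TPM + 1) with limma 3.58.1 in R 4.3.3, with a trended prior, and p-values were adjusted by Benjamini-Hochberg over all of them, with a threshold of 0.05. The pseudocount understates changes of low genes. The genes named by rule were those that passed, the 3 most abundant tested members of each of 10 families, and tested members with an absolute log2 change of at least 0.8. Others are said to have been chosen after their values were seen. On simulated data, 62% of genes changed by 1 and 90% of genes changed by 2 (log2) were recovered, with 10 false calls. Their noise was drawn separately for each gene and library, so the deviation shared by the replicate 3 libraries was not in it. These shares may therefore not hold for the real libraries.

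Same-numbered KD and DE libraries deviated together from their group means (correlations 0.108, 0.144 and 0.347 over genes), all over 0.1, so the numbers were treated as pairs. A fit blocked on them is given where it changes the call of a gene named or a list's count. Differently numbered libraries correlated at 0.121 (KD 1 with DE 2) and 0.0769 (KD 2 with DE 1), so replicates 1 and 2 were not told apart by number, and those with 1 library of replicate 3 were at -0.167 or below. The pairing comes from this check, not from the labels.

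Reads were estimated from the steps between low TPM values and GENCODE 29 exon lengths, giving 18646526 to 24515341 per library. These totals cover only the 37138 rows matched to GENCODE 29 by symbol. Among values of up to 50 estimated reads, between 88.3% and 89.0% came out whole. The alternatives tried were other pseudocounts, filters and scalings, the replicate block, leaving out libraries and voom on the estimated reads.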

Additional observations from a re-analysis of the deposited data

How the results depend on the processing

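All genes passing numbered 579 of 17711, and 239 of 36978 without a filter, 1735 after quantile normalization, 1753 after median-ratio scaling and 1700 of 17676 without mitochondrial genes. They numbered 2215 with the replicate block, 1212 without replicate 3 of both groups, 1847 of 14681 by voom on the estimated reads and 87 to 610 without 1 library. Channel genes passing numbered 4 of 63, and 1 of 132 without a filter and 2 of 24 at a mean of at least 5 TPM. KCNJ5 and CACNG5 lay under that mean and were not tested there. The count was 11 after quantile normalization, 12 after median-ratio scaling, 10 without mitochondrial genes, 14 with the replicate block, 14 by voom and 0 to 6 without 1 library. The cause of these differences was not tested. Without a filter, KCNF1 (limma adjusted p = 0.0677), KCNJ5 (0.123) and CACNG5 (0.0709) did not pass and CACNG7 (0.0436) did. The replicate block removed none of the 4 calls and added 10, of which voom did not call KCNK1, KCNS3 and KCNJ4. The log2 change of GATA6-AS1 lay between -1.38 and -1.11 without 1 library. Signs turned for genes with changes near 0 that did not pass. KCNMB4 had -0.0257 without replicate 3 of both groups and -0.0944 to 0.118 without 1 library, KCNJ12 had -0.36 to 0.0174 and KCNG1 -0.21 to 0.0806 without 1 library, and SCN4A had -0.0126 without replicate 3 of both groups and -0.0915 to 0.0847 without 1 library. KCNE5 had 0.0028 after quantile normalization, 0.0018 after median-ratio scaling, 0.0043 without mitochondrial genes, 0.0317 without replicate 3 of both groups, 0.0020 by voom and -0.18 to 0.0905 without 1 library. Leaving out DE replicate 3 moved the median log2 change of all genes to -0.10. Of 528 values of 30 named genes under 18 settings, 445 kept their direction and their side of the threshold, 43 passed only under the setting, 22 no longer passed and 18 changed sign. Voom was chosen after seeing the data. Depth limits the 67 members under 1 TPM in every library.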
